A study of Mus musculus with 39 samples.

Results

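Brains of mice given the nerve agent soman at 1/5 of the LD50 and taken at day 3 were compared with brains of mice given saline. The 2 groups were found by their column names in the deposited expression table and hold 3 libraries each, 6 of the 39 libraries of the series. Soman was injected under the skin, and the LD50 is the dose that kills 50% of animals. The other groups used here had soman at 1/10 or 1/2 of the LD50 at day 3, or at 1/5 of the LD50 at day 1 or day 7, with 3 libraries each. All mice were kept at 21 to 25 °C with 12 h of light and 12 h of dark. The labels give each group 3 biological replicates but no strain, sex or age, no number of doses, no region of the brain and no day for the saline brains. Any difference from saline therefore also holds whatever differed between the collection days, and these cannot be told apart. In RNA of brain tissue, fewer cells of a type and less RNA per cell cannot be told apart either.

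Soman is an organophosphate that binds the active site of acetylcholinesterase, so that acetylcholine persists at cholinergic synapses and, at high doses, seizures follow. Immediate early genes such as Fos and Arc are transcribed in neurons within minutes of firing or of growth factor signals, and their short-lived transcripts report recent activity. Chaperones of the endoplasmic reticulum fold secreted and membrane proteins, and their genes are induced by the unfolded protein response through the transcription factors ATF6 and XBP1. Cold-inducible RNA-binding proteins are made when body temperature falls, and they also follow the daily rhythm.

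Values were deposited in FPKM, which is scaled to transcript length and to the mapped fragments of each library, and tested as log2(FPKM + 1). The depth of each library is unknown. FPKM summed to 322579 to 324000 in the soman libraries and to 296322 to 316802 in the saline libraries, with 25027 to 25937 and 25731 to 26001 genes above 0. Transcripts of the mitochondrial genome took 9.49% to 11.1% of the FPKM in the soman libraries and 6.82% to 11.3% in the saline libraries.

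One soman library stood apart by brain region. In replicate 2, Pcp2, a Purkinje cell gene, was at 0.920 FPKM, against 75.3 and 88.8 FPKM in soman replicates 1 and 3 and 78.2 to 89.9 FPKM in saline. Gabra6, a GABA-A receptor subunit of cerebellar granule cells, was at 0.376 FPKM in replicate 2, against 43.2 and 48.0 in the other soman libraries and 53.7 to 69.1 in saline. Cbln3 and Fat2, both granule cell genes, were at 0.491 and 0.133 FPKM in replicate 2. The 19 cerebellar markers summed to 632, 190 and 786 FPKM in soman replicates 1, 2 and 3, and to 860, 732 and 776 FPKM in saline replicates 1, 2 and 3. Replicate 2 of the 1/10 LD50 group at day 3 was as low, at 189 FPKM. Counts that moved by over 1.5 times without replicate 2 are given below. Only some of the named genes whose calls were lost are marked. In saline, replicate 3 lay between the other 2 replicates at 62.5% of the 56 genes on which those 2 differed over 2-fold, against at most 33.9% for any library of another group. It was 1 of 7 such libraries in the series, none of them from the soman group described here.

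A difference by transcript length also ran through the comparison. Median levels of the 2003 tested genes with a longest transcript over 6000 bases were below the saline mean by log2 values of -0.19, -0.19 and -0.10 in soman replicates 1, 2 and 3, against 0.00, -0.02 and 0.02 in saline replicates 1, 2 and 3. The 2269 genes under 1500 bases stood at 0.16, 0.18 and 0.12 in the soman libraries, against 0.01, -0.01 and -0.00 in the saline libraries. Both ends of the length scale thus separated all soman from all saline libraries, in opposite directions. Counts were repeated with each library's trend on length removed, and those values are given beside the groups of long or short genes.

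**Figure D1:**
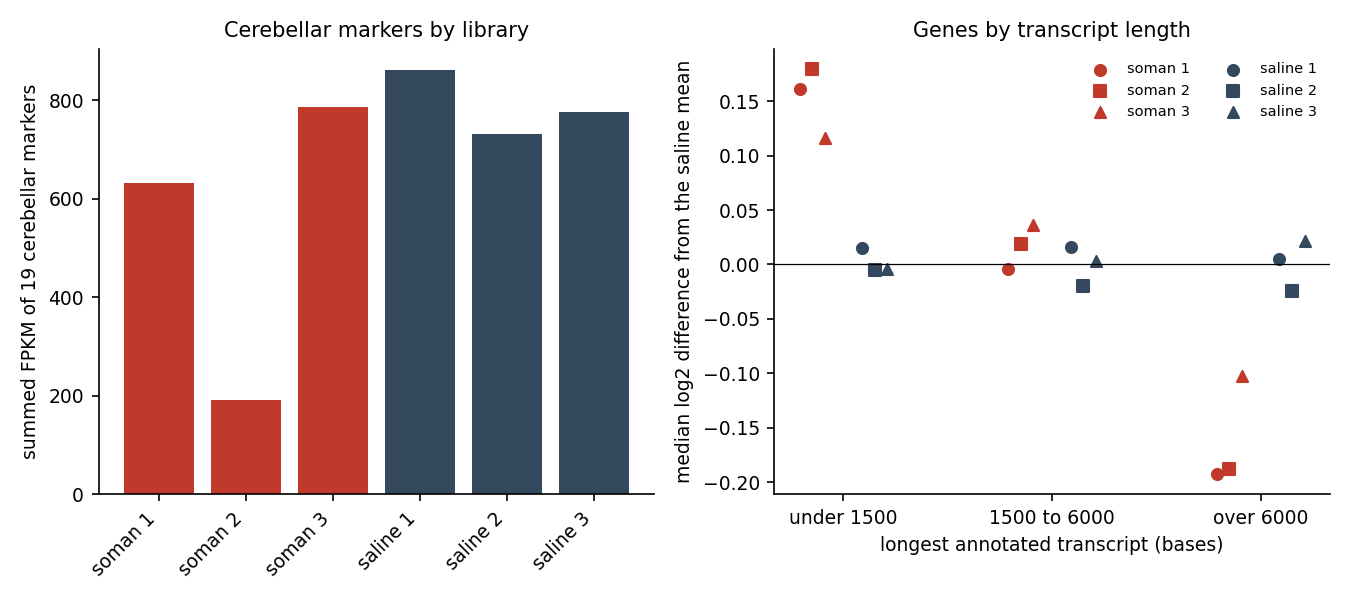
Left, summed FPKM of 19 cerebellar markers in each library, with soman replicates 1 to 3 left of saline replicates 1 to 3; soman replicate 2 stands at 190, against 632 to 860 in the others. Right, median log2 difference of each library from the saline mean for genes of 3 classes of transcript length (bases); the soman points lie above the saline points for short and below them for long transcripts.

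Of 14701 genes tested, 365 rose and 900 fell in the soman group at an adjusted p under 0.05 (limma, Benjamini-Hochberg), or 2.48% and 6.12% of the genes tested. At an unadjusted p under 0.05 there were 3666. The changes were small: the median absolute log2 difference of the called genes was 0.35, and 19 of them passed a log2 difference of 1 in either direction. All 3 soman libraries lay above all 3 saline libraries for 2400 genes (16.3%) and below them for 2196 (14.9%). Without soman replicate 2, 86 genes rose and 367 fell, and 435 of these 453 were among the 1265 called with it. Without the 7 libraries that lie between others, 39 rose and 164 fell, and 201 of these 203 were among the 1265. Fitted on the 2 groups alone, 177 rose and 173 fell.

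**Figure D2:**
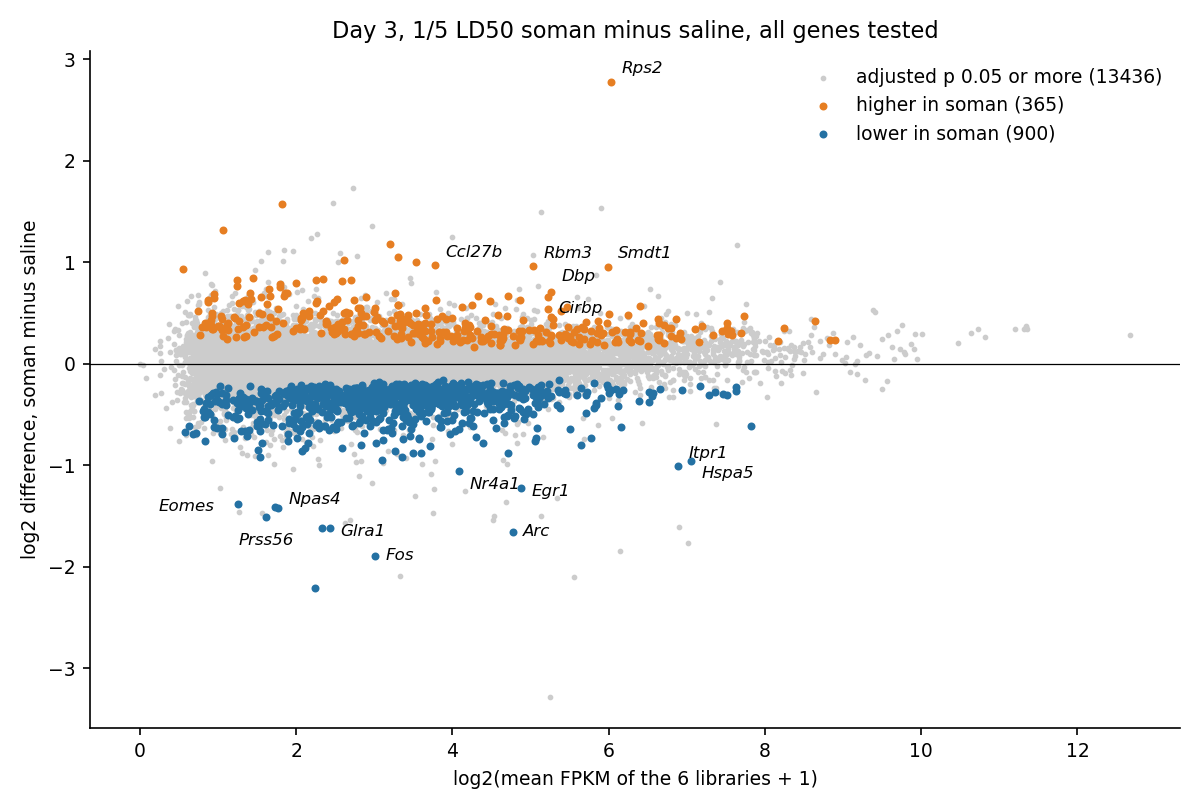
Log2 difference of soman (1/5 LD50, day 3) minus saline against log2(mean FPKM of the 6 libraries + 1), 1 point per tested gene. Orange points (365) rose and blue points (900) fell at an adjusted p under 0.05; Fos and Arc lie among the lowest of the named genes and Rps2 highest.

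Genes that fell had long transcripts and genes that rose had short ones. The median longest transcript was 6678 bases for the genes that fell and 1890 bases for those that rose, against 3281 bases for all genes tested. Of the genes over 6000 bases 26.2% fell and 0.449% rose. Of those under 1500 bases 0.573% fell and 5.73% rose. With the length trend removed, 225 genes rose and 359 fell, and 421 of these 584 were among the 1265.

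Immediate early genes were among the largest falls. Fos, a subunit of the AP-1 transcription factor, was at 1.49, 1.43 and 5.10 FPKM in the soman libraries, against 12.7, 11.2 and 10.4 FPKM in saline. It was the largest named fall, with a log2 difference of -1.90 ± 0.23 (SE) and an adjusted p of 3.61e-05 (limma). Arc, which controls AMPA receptor uptake at synapses, was at 8.79, 9.31 and 20.4 FPKM, against 43.1, 39 and 37.6 FPKM in saline (-1.66 ± 0.22, adjusted p = 4.86e-05). In both genes every soman library lay below every saline library, and soman replicate 3 lay nearest to saline.

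Npas4, a transcription factor induced by calcium entry into neurons, was at 0.681, 0.674 and 1.26 FPKM, against 4.05, 3.57 and 4.23 FPKM in saline (-1.42 ± 0.20, adjusted p = 8.84e-05). Egr1, a zinc finger transcription factor, was at 11.8, 15.1 and 24.7 FPKM, against 40.1, 41 and 37.9 FPKM (-1.22 ± 0.23, adjusted p = 0.00141). Nr4a1, an orphan nuclear receptor, was at 7.15, 8.56 and 15.3 FPKM, against 22.0, 21.8 and 20.6 FPKM (-1.05 ± 0.23, adjusted p = 0.00443). Soman replicate 3 was again the highest of its group in these 3 genes and still below all of saline. Dusp4, a phosphatase of MAP kinases, was at 1.57, 2.01 and 2.55 FPKM, against 3.74, 4.25 and 4.0 FPKM (-0.73 ± 0.11, adjusted p = 1.32e-04). Dusp5, of the same family, was at 5.00, 1.98 and 8.70 FPKM, against 11.5, 8.78 and 9.31 FPKM, and its call (-0.95 ± 0.30, adjusted p = 0.0429) was lost without replicate 2 (adjusted p = 0.356).

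Of 40 tested immediate early genes 18 fell and none rose, where 6.12% of all genes fell. Their median log2 difference was -0.39, against 0.01 over all genes tested. Beside those above, Dusp1, Junb, Homer1, Nfil3, Nr4a3, Fosl2, Trib1, Klf4, Fosb, Dusp6 and Sik1 fell, by log2 values between -0.87 in Dusp1 and -0.38 in Sik1. In 23 of the 40 every soman library was below every saline library, and in none was it above, against 14.9% and 16.3% of all genes. Without replicate 2, 13 fell, and Junb (adjusted p = 0.0549, limma) and Fosb (adjusted p = 0.0885) were among those that no longer passed. Without the 7 libraries, 11 fell. With the length trend removed 18 fell. The list's summed level was 230, 253 and 297 FPKM in the soman libraries, against 396, 397 and 383 FPKM in saline (exact permutation test, two-sided, p = 0.1, the smallest that 3 against 3 libraries can give).

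**Figure D3:**
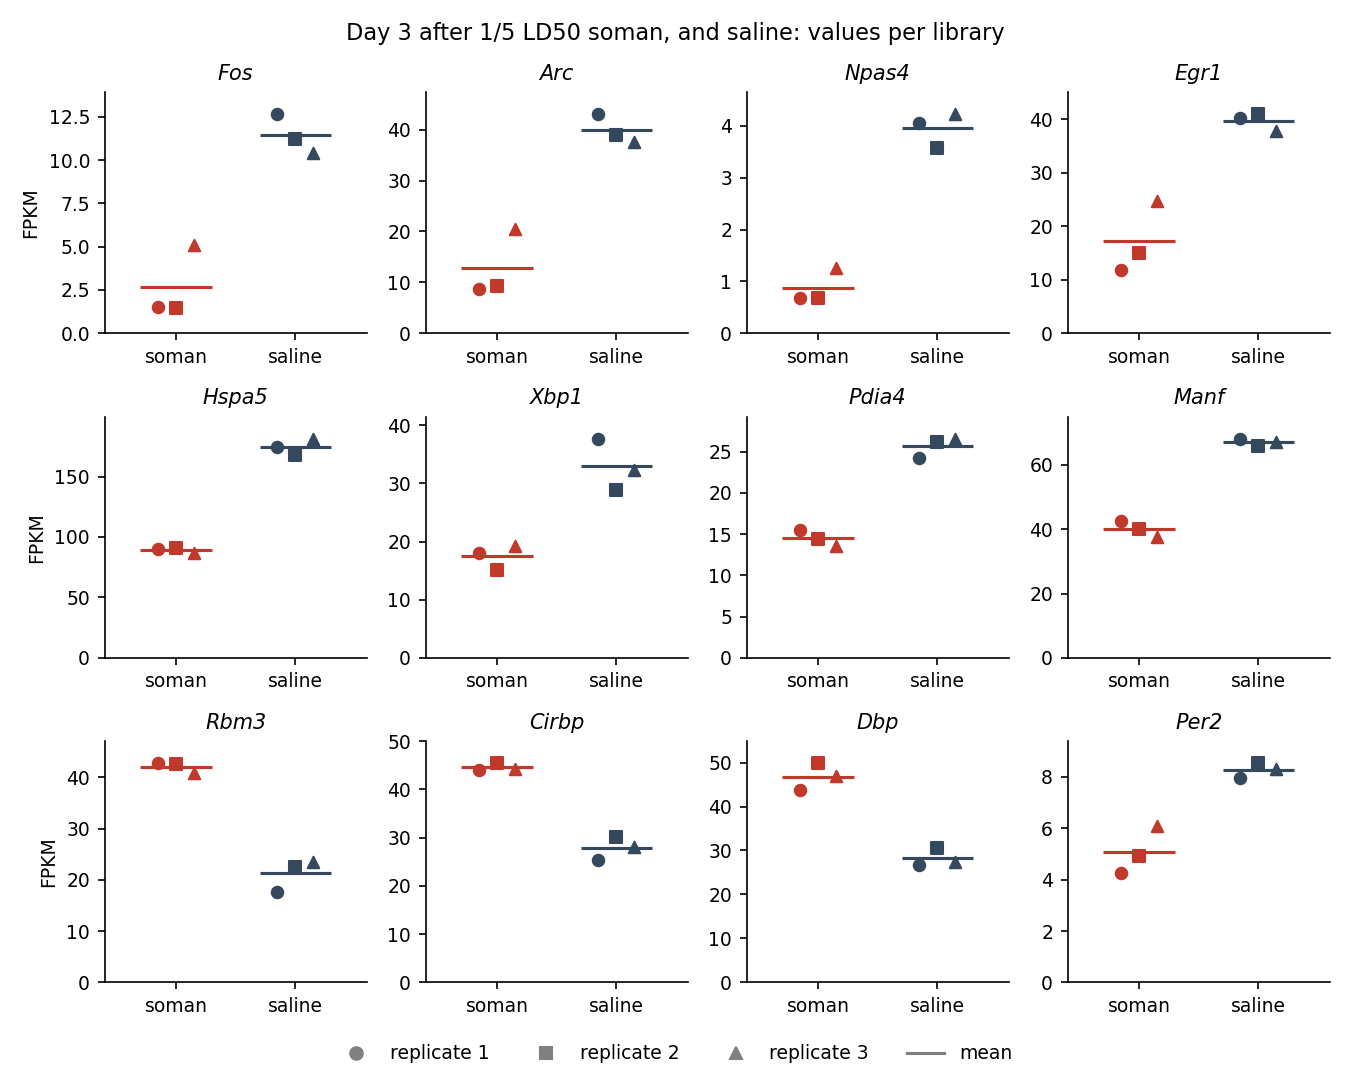
FPKM of 12 genes in each library, soman (1/5 LD50, day 3) left of saline; marker shapes give the replicate and lines the mean of 3. The soman libraries lie below all saline libraries in the panels of immediate early genes, endoplasmic reticulum chaperones and Per2, and above them in Rbm3, Cirbp and Dbp.

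Promoters of the immediate early genes are shown because cyclic AMP response elements drive many of them. Windows from 250 bases before to 50 bases after the start (RefSeq, GRCm38.p6) were matched by symbol for 10940 tested genes and 31 of the 40. The half-site TGACG, on either strand, was in 24 of the 31 (77.4%), against 35.1% of all 10940 windows. The half-site was in 34.0% of the windows of genes that fell and in 32.7% of those of genes that rose. Of the 24 list genes that held it 11 fell and 13 did not pass. The full element TGACGTCA, which contains the half-site, was in 4 of the 31 (12.9%), against 3.51% of all windows. Of these 4 genes Dusp1 fell and 3 did not pass. Fos, Npas4 and Nr4a1 are shown as the 3 largest falls among the list genes that held the half-site. Their 170 bases before the start follow, 5′ to 3′ on the gene's strand, with TGACG or its reverse complement CGTCA in capitals. They lie at chr12:85473720-85473889 (plus strand) for Fos, chr19:4989972-4990141 (minus strand) for Npas4 and chr15:101266676-101266845 (plus strand) for Nr4a1.
Fos: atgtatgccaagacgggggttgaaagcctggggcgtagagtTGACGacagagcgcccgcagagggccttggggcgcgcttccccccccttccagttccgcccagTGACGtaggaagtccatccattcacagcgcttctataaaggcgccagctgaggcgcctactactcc
Npas4: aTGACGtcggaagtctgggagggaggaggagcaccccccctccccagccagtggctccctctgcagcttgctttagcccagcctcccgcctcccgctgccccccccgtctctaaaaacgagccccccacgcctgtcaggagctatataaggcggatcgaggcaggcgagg
Nr4a1: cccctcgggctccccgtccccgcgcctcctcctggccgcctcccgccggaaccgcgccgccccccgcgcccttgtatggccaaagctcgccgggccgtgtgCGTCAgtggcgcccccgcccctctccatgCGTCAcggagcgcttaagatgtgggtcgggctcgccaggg
Fos and Nr4a1 hold 2 half-sites each in these stretches and Npas4 holds 1, at the far end of its stretch.

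About as many genes of endoplasmic reticulum folding and its stress response fell as did not pass. Hspa5, the Hsp70 chaperone of that compartment (BiP), was at 90.1, 90.5 and 87.1 FPKM in the soman libraries, against 175, 168 and 181 FPKM in saline. The groups were far apart (-0.96 ± 0.13, adjusted p = 4.86e-05, limma), and the soman libraries lay closer to each other than the saline libraries did. Xbp1, the transcription factor spliced by the stress sensor IRE1, was at 18.1, 15.1 and 19.2 FPKM, against 37.7, 28.9 and 32.3 FPKM (-0.88 ± 0.11, adjusted p = 4.26e-05). Pdia4, a protein disulfide isomerase, was at 15.5, 14.4 and 13.6 FPKM, against 24.2, 26.2 and 26.6 FPKM (-0.78 ± 0.10, adjusted p = 4.86e-05). Manf, a secreted protein that is retained in the endoplasmic reticulum, was at 42.5, 40.0 and 37.5 FPKM, against 68.2, 66.0 and 67.0 FPKM (-0.73 ± 0.10, adjusted p = 7.42e-05).

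Of 29 tested members of the list 15 fell and none rose, beside the 6.12% of all genes, and their median log2 difference was -0.23. In 19 of the 29 every soman library was below every saline library, and in 3 it was above, against 14.9% and 16.3% of all genes. The 14 that did not pass include the chaperones Canx (-0.13, adjusted p = 0.319), Pdia3 (-0.18, adjusted p = 0.0984) and P4hb (0.02, adjusted p = 0.920). The other calls were Sdf2l1, Creld2, Dnajc3, Hyou1, Pdia6, Sel1l, Herpud1, Hsp90b1, Dnajb11, Calr and Syvn1, from -0.85 in Sdf2l1 to -0.22 in Syvn1. Without replicate 2, 10 fell, and not every call that was lost is named here. Without the 7 libraries, 8 fell. With the length trend removed 15 fell, and Syvn1 was not among them (adjusted p = 0.0546).

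The promoters of these genes are shown because some endoplasmic reticulum chaperones carry the endoplasmic reticulum stress response element (ERSE). It is CCAAT and CCACG set 9 bases apart, to which NF-Y and ATF6 bind. The element was found, on either strand, in the windows of 19 of the 10940 tested genes (0.174%), at 18 distinct positions. Of the 26 chaperone list genes with a window, 9 held it (34.6%), of which Canx and Ero1b did not pass the test. Among all 19 genes with the element 7 fell and none rose. These 7 were Hspa5, Creld2, Dnajc3, Pdia6, Hsp90b1, Calr and Syvn1, all of them in the chaperone list, and none of the 10 genes outside the list passed the test. The 170 bases before the start of the 7 follow, 5′ to 3′ on the gene's strand, with the element in capitals, in its reverse complement where it begins CGTGG. They lie at chr2:34771920-34772089 (plus) for Hspa5, chr15:88819476-88819645 (plus) for Creld2, chr14:118937762-118937931 (plus) for Dnajc3, chr12:17266419-17266588 (plus) for Pdia6, chr10:86705445-86705614 (minus) for Hsp90b1, chr8:84846932-84847101 (minus) for Calr and chr19:6046406-6046575 (plus) for Syvn1.
Hspa5: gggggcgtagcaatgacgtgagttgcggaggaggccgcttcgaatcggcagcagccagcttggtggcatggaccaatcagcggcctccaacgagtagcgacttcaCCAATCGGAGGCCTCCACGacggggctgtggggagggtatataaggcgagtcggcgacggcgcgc
Creld2: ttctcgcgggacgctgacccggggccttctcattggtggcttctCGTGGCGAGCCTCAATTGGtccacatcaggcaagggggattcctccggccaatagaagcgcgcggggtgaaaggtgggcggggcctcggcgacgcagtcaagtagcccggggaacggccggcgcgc
Dnajc3: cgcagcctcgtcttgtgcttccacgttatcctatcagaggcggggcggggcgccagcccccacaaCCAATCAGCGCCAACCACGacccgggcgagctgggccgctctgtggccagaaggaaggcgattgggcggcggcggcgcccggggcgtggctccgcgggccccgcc
Pdia6: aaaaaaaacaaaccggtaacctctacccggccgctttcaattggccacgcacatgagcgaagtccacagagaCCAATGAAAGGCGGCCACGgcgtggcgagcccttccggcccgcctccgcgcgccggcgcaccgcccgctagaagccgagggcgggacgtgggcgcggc
Hsp90b1: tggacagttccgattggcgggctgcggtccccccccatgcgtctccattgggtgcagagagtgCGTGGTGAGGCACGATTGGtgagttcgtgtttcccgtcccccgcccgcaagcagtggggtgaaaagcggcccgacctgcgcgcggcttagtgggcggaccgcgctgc
Calr: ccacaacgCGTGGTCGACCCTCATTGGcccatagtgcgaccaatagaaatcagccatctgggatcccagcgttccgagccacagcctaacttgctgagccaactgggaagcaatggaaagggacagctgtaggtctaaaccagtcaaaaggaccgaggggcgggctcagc
Syvn1: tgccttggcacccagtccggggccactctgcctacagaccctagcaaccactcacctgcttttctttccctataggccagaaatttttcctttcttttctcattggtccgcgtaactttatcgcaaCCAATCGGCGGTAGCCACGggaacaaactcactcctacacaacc
A further copy in Hsp90b1 lies upstream of the stretch shown.

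Creld2, a disulfide isomerase-like protein, was at 9.02, 7.57 and 9.05 FPKM in the soman libraries, against 16.3, 14.9 and 15.7 FPKM in saline (-0.80 ± 0.13, adjusted p = 2.06e-04). Dnajc3, a co-chaperone of Hspa5, was at 9.35, 8.64 and 9.60 FPKM, against 14.1, 13.2 and 14.8 FPKM (-0.56 ± 0.09, adjusted p = 3.49e-04). Pdia6 was at 44.8, 52.1 and 47.7 FPKM, against 63.8, 63.2 and 65.6 FPKM (-0.41 ± 0.10, adjusted p = 0.0137). In all 3 genes the soman libraries lay below every saline library.

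Hsp90b1, the Hsp90 of the compartment, was at 145, 157 and 140 FPKM, against 185, 167 and 185 FPKM in saline (-0.28 ± 0.07, adjusted p = 0.0114). Calr, a lectin chaperone, was at 182, 183 and 176 FPKM, against 211, 212 and 212 FPKM (-0.23 ± 0.06, adjusted p = 0.0213). Syvn1, a ubiquitin ligase that clears misfolded proteins, was at 13.2, 12.1 and 13.5 FPKM, against 15.2, 15.2 and 15.1 FPKM (-0.22 ± 0.06, adjusted p = 0.0183). The falls of the 7 genes ran between log2 values of -0.96 in Hspa5 and -0.22 in Syvn1. Without replicate 2, Calr (adjusted p = 0.0634) and Syvn1 (adjusted p = 0.134) no longer passed, while the other 5 did. Alg12, whose start faces that of Creld2, has the same copy of the element in its window. It was at 3.36, 4.30 and 4.72 FPKM, against 4.32, 3.56 and 3.53 FPKM (0.09 ± 0.10, adjusted p = 0.638).

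Heat shock proteins outside the endoplasmic reticulum fell in part. Of 24 tested 7 fell and none rose (Hspb1, Chordc1, Dnajb1, Dnajb5, Hsph1, Stip1 and Hspa4), with a median log2 difference of -0.16. Of all genes tested 6.12% fell. Chordc1, a co-chaperone of Hsp90, was at 22.0, 20.9 and 18.1 FPKM in the soman libraries, against 29.4, 27.4 and 31.2 FPKM in saline (-0.51 ± 0.10, adjusted p = 0.00164, limma). Dnajb1, the main cytosolic Hsp40, was at 8.98, 10.4 and 9.99 FPKM, against 14.6, 13.8 and 13.3 FPKM (-0.47 ± 0.10, adjusted p = 0.00425). Both genes separated the groups. Hspa8, the constitutive Hsp70, was at 480, 631 and 475 FPKM, against 560, 549 and 552 FPKM, and did not pass (adjusted p = 0.661). Without replicate 2, 3 of the 24 fell (Chordc1, Dnajb1 and Hsph1), and without the 7 libraries none did.

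Both cold-inducible RNA-binding proteins rose. Rbm3 was at 42.8, 42.6 and 40.8 FPKM in the soman libraries, against 17.7, 22.6 and 23.6 FPKM in saline (0.96 ± 0.14, adjusted p = 1.32e-04, limma). Cirbp was at 44.1, 45.5 and 44.1 FPKM, against 25.4, 30.2 and 28 FPKM (0.66 ± 0.14, adjusted p = 0.00254). The soman values of each gene differed by less than the saline values did, and the groups did not overlap. Both genes also passed without replicate 2 (adjusted p = 0.00176 for Rbm3 and 0.0176 for Cirbp), without the 7 libraries and with the length trend removed.

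Among 17 circadian clock genes 1 rose and 3 fell, where 2.48% of all genes rose and 6.12% fell. Dbp, an output gene of the clock that peaks by day, was at 43.6, 49.9 and 46.9 FPKM in the soman libraries, against 26.7, 30.6 and 27.3 FPKM in saline (0.71 ± 0.13, adjusted p = 0.00106, limma). Per2, a repressor of the clock, was at 4.25, 4.94 and 6.09 FPKM, against 7.94, 8.53 and 8.31 FPKM (-0.62 ± 0.12, adjusted p = 0.00214). The groups were apart in both genes, in opposite directions. Clock fell by 0.35 (SE 0.07, adjusted p = 0.00279) and Bhlhe40, another repressor, by 0.37 (SE 0.10, adjusted p = 0.0177) on the log2 scale. Clock no longer passed with the length trend removed (adjusted p = 0.201), and Bhlhe40 no longer passed without replicate 2 (adjusted p = 0.0637). Without the 7 libraries Dbp passed (adjusted p = 0.0396) and none of the 3 falls did (adjusted p = 0.0508 for Per2). The hour at which brains were taken is not given in the labels, and its part in these values was not tested.

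Other large falls were in genes known from particular brain regions. Eomes, a transcription factor of neuronal progenitors and of olfactory bulb projection neurons, was at 0.323, 0.122 and 0.507 FPKM in the soman libraries, against 1.75, 2.85 and 2.75 FPKM in saline (-1.38 ± 0.19, adjusted p = 7.30e-05, limma). Cdhr1, a cadherin of the same bulb neurons, was at 0.781, 1.41 and 0.919 FPKM, against 0.925, 5.05 and 3.57 FPKM (adjusted p = 0.135), so that saline replicate 1 lay with the soman libraries. The 15 olfactory bulb markers summed to 201 to 231 FPKM in the soman libraries, against 220 to 265 FPKM in saline. Of the 14 tested, Eomes was the single call, a share near the 6.12% of all genes that fell. The part of olfactory tissue in its fall was not tested.

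Itpr1, the inositol trisphosphate receptor abundant in Purkinje cells, was at 72.9, 53.5 and 114 FPKM, against 166, 144 and 155 FPKM in saline (-1.0 ± 0.21, adjusted p = 0.00293). All 3 soman libraries were lower, and without replicate 2 the adjusted p was 0.0486. Of the 19 cerebellar markers 2 fell and 17 did not pass, where 6.12% of all genes fell. The list median was -0.96 with replicate 2 and -0.10 without it.

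Glra1, a glycine receptor subunit of brainstem and spinal cord, was at 1.12, 1.06 and 3.09 FPKM, against 7.95, 6.23 and 6.93 FPKM in saline (-1.62 ± 0.48, adjusted p = 0.0352). It no longer passed without replicate 2 (adjusted p = 0.145). Prss56, a serine protease, was at 0.230, 2.68 and 2.11 FPKM, against 5.94, 6.53 and 6.75 FPKM (-1.62 ± 0.38, adjusted p = 0.00790). In both genes all soman libraries lay below saline, with a wide spread among themselves.

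Of the 12 largest named falls 8 passed with each of the 6 libraries left out in turn (Fos, Arc, Npas4, Eomes, Egr1, Nr4a1, Itpr1 and Hspa5). Of the 12 largest named rises 5 did (Rbm3, Zfand1, Ctla2a, Dbp and Jak3). Without the 7 libraries that lie between others, Fos, Arc, Npas4, Eomes, Egr1, Nr4a1 and Hspa5 among the falls and Rbm3 and Dbp among the rises passed.

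The named rises were led by Rps2, a ribosomal protein gene, at 224, 19.5 and 109 FPKM in the soman libraries, against 15.6, 8.35 and 9.09 FPKM in saline (2.78 ± 0.70, adjusted p = 0.0124, limma). Its near-identical processed pseudogenes Rps2-ps10 and Rps2-ps13 were named here after their values were seen. Both lay below all saline libraries in soman replicates 1 and 3, and above them in replicate 2. Rps2-ps10 was at 4.72, 201 and 87.0 FPKM, against 144, 150 and 181 FPKM (adjusted p = 0.0789, and 0.00685 without soman replicate 2). Rps2-ps13 was at 2.76, 60.2 and 30.6 FPKM, against 46.9, 46.7 and 48.7 FPKM (adjusted p = 0.0876, and 0.00685 without soman replicate 2). The soman library highest in Rps2 was the lowest in both copies. How reads were shared between the copies is not given in the sources used here, so the rise of Rps2 is uncertain.

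Smdt1, a subunit of the mitochondrial calcium uniporter, was at 104, 101 and 47.9 FPKM in the soman libraries, against 42.0, 38.1 and 41.8 FPKM in saline (0.96 ± 0.22, adjusted p = 0.00633). The rise lay in replicates 1 and 2, and without replicate 2 the adjusted p was 0.0667. Ccl27b, a chemokine, was at 15.6, 18.4 and 17.5 FPKM, against 8.52, 7.39 and 8.84 FPKM (0.97 ± 0.24, adjusted p = 0.0114). Zfand1, a zinc finger protein of stress granule clearance, was at 8.09, 7.54 and 6.32 FPKM, against 3.37, 4.14 and 3.56 FPKM (0.82 ± 0.17, adjusted p = 0.00226). In both genes all soman libraries lay above saline, and Ccl27b lost its call without replicate 2 (adjusted p = 0.0609).

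A further 5 named rises were between log2 values of 0.67 and 0.80. Ctla2a, an inhibitor of cysteine proteases, was at 5.31, 4.02 and 2.92 FPKM in the soman libraries, against 2.18, 1.74 and 1.69 FPKM in saline (adjusted p = 0.00343, limma). Mcm5, a subunit of the replicative helicase, was at 4.15, 3.24 and 3.34 FPKM, against 1.82, 1.90 and 1.69 FPKM (adjusted p = 0.0107). Jak3, a cytokine receptor kinase, was at 3.70, 3.46 and 3.03 FPKM, against 1.93, 1.66 and 1.69 FPKM (adjusted p = 0.00903). These 3 genes separated the groups and passed without replicate 2. Pla2g4e, a phospholipase A2, was at 12.3, 9.56 and 10.8 FPKM, against 5.95, 6.63 and 6.36 FPKM (adjusted p = 0.0438). Ifi27, an interferon-induced mitochondrial protein, was at 30.2, 31.0 and 32.4 FPKM, against 20.5, 18.6 and 18.8 FPKM (adjusted p = 0.0291). Neither passed without replicate 2 (adjusted p = 0.0817 for Pla2g4e and 0.0905 for Ifi27), although their groups were apart.

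Groups of genes that share transcript length moved together, and fewer of them passed with the length trend removed. Of 76 cytosolic ribosomal protein genes 17 rose and none fell, where 2.48% of all genes rose. Their median log2 difference was 0.33 and their median longest transcript 1100 bases. In 63 of the 76 all soman libraries lay above all saline libraries, against 16.3% of all genes. Rpl24 was at 205, 199 and 198 FPKM in the soman libraries, against 163, 154 and 161 FPKM in saline (0.33 ± 0.07, adjusted p = 0.00164, limma). With the length trend removed 3 of the 76 rose, without replicate 2, 5 did, and without the 7 libraries 1 did.

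Few respiratory chain subunits of the nuclear genome passed. Of 60 tested 5 rose and none fell, beside the 2.48% of all genes that rose, with a median of 0.23. In 47 all soman libraries lay above all of saline, against 16.3% of all genes. Ndufv3, a complex I subunit, was at 73.5, 73.7 and 73.3 FPKM, against 47.6, 60.4 and 49.2 FPKM in saline (0.49 ± 0.12, adjusted p = 0.00825). With the length trend removed 1 of the 60 rose, without replicate 2 also 1, and without the 7 libraries none.

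Of 28 chromatin regulators with long transcripts 17 fell and none rose, where 6.12% of all genes fell, with a median of -0.28 and a median longest transcript of 10366 bases. Kmt2c, a histone H3 lysine methyltransferase, was at 6.29, 5.68 and 7.30 FPKM in the soman libraries, against 10.2, 9.75 and 9.64 FPKM in saline (-0.55 ± 0.07, adjusted p = 4.86e-05, limma). Ep300, a histone acetyltransferase, was at 7.24, 6.87 and 9.57 FPKM, against 11.9, 11.5 and 11.1 FPKM (-0.50 ± 0.08, adjusted p = 4.21e-04). Both lay below all of saline. With the length trend removed 2 of the 28 fell and 1 rose, and Kmt2c (adjusted p = 0.00847) and Ep300 (adjusted p = 0.0129) were the 2 that fell. Without replicate 2, 8 of the 28 fell, without the 7 libraries 6, and on the 2 groups alone 1.

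Some ion channel subunits, many of them also long, fell. Of 8 voltage-gated sodium channel subunits 3 fell, of 15 calcium channel subunits 5, and of 33 potassium channel subunits 4, with no rise in any of these lists, where 6.12% of all genes fell. Without replicate 2 these counts were 1, 1 and 0. On the 2 groups alone 2 sodium, 0 calcium and 1 potassium channel subunit fell and 1 sodium channel subunit rose. Scn1a, the sodium channel of inhibitory interneurons that is mutated in Dravet syndrome, was at 15.9, 16.8 and 20.2 FPKM in the soman libraries, against 25.2, 25.9 and 27.4 FPKM in saline (-0.55 ± 0.10, adjusted p = 0.00110, limma). It also passed with the length trend removed (adjusted p = 0.0131). Cacna1c, the L-type calcium channel pore, was at 7.14, 7.00 and 7.72 FPKM, against 8.93, 10.8 and 9.40 FPKM (-0.37 ± 0.07, adjusted p = 0.00114), and did not pass with the trend removed (adjusted p = 0.306). With the trend removed 1 sodium, 1 calcium and no potassium channel subunit fell. Of the GABA-A receptor subunits 2 of 14 fell, among them Gabrb2 at -0.42 (adjusted p = 0.00664), with 1 of 14 without replicate 2. Of the ionotropic glutamate receptor subunits 1 of 15 fell, Grik3 at -0.41 (adjusted p = 0.00863), a share near that of all genes, and none fell with the length trend removed.

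**Figure D4:**
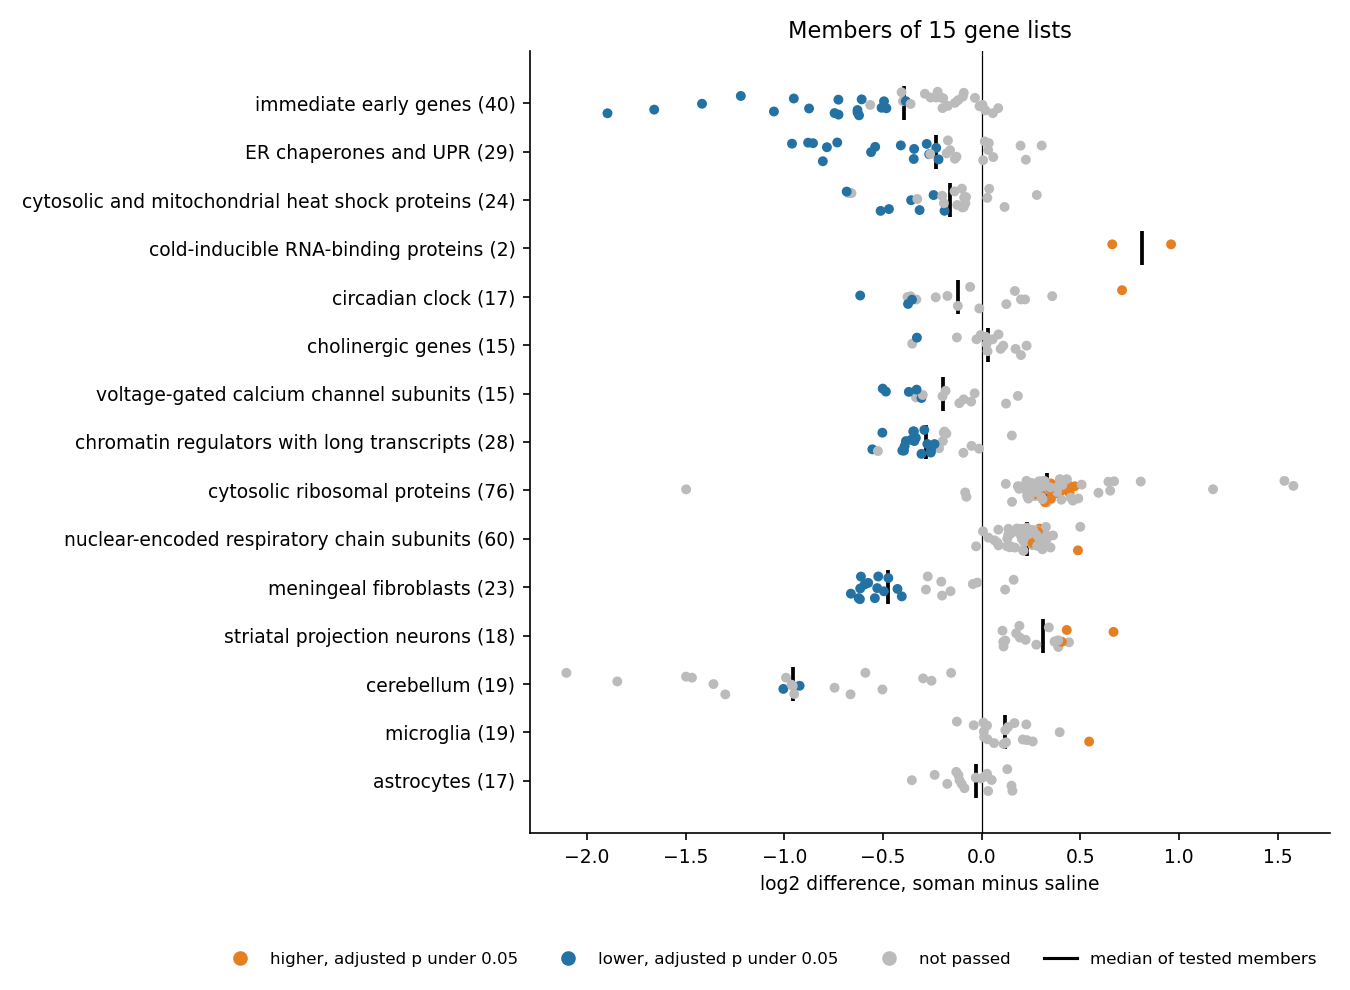
Log2 difference of soman (1/5 LD50, day 3) minus saline for the tested members of 15 gene lists, 1 point per gene, with the number tested in brackets and a bar at each list's median; Rps2, at 2.78, lies outside the range shown. Immediate early genes, endoplasmic reticulum (ER) chaperones with the unfolded protein response (UPR), meningeal markers and long chromatin regulators lie to the left, and ribosomal, respiratory and cold-inducible genes to the right.

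Markers of the meninges were lower in the soman libraries. Of 23 tested 14 fell and none rose, where 6.12% of all genes fell, with a median log2 difference of -0.47. Slc13a4, a sulfate transporter of leptomeningeal cells, was at 3.40, 3.18 and 3.55 FPKM, against 5.96, 5.90 and 5.37 FPKM in saline (-0.62 ± 0.12, adjusted p = 0.00130, limma). Thbd, thrombomodulin, was at 2.24, 1.96 and 2.11 FPKM, against 3.93, 3.22 and 3.92 FPKM (-0.59 ± 0.09, adjusted p = 1.67e-04). The groups did not overlap in either gene. Dcn, decorin, was at 13.1, 10.1 and 10.8 FPKM, against 13, 10.4 and 11.1 FPKM (adjusted p = 0.934). The summed level of the list was 202 to 221 FPKM in the soman libraries, against 219 to 264 FPKM in saline, so that the sums of the groups overlapped. Without replicate 2, 5 of the 23 fell, and without the 7 libraries also 5.

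Some collagens and collagen-modifying enzymes were lower beside these markers. Of all genes tested 6.12% fell. Of 24 collagens 6 fell and none rose, among them Col1a1 at 3.72, 2.48 and 3.06 FPKM, against 5.35, 5.00 and 5.31 FPKM in saline (-0.62 ± 0.14, adjusted p = 0.00525, limma). Without replicate 2, 3 collagens fell and Col1a1 did not pass (adjusted p = 0.0598). Of 14 collagen-modifying and matrix-crosslinking enzymes 4 fell and none rose, and 2 fell without replicate 2. P4ha1, a prolyl hydroxylase of collagen that is induced by hypoxia, was at 10.3, 10.6 and 11.0 FPKM, against 17.3, 15.1 and 16.2 FPKM (-0.57 ± 0.07, adjusted p = 2.02e-05). It passed with each library left out, at an adjusted p of 4.24e-04 or less. Pfkfb3, a hypoxia-induced regulator of glycolysis, fell too (-0.52 ± 0.10, adjusted p = 0.00163), while Slc2a1, the glucose transporter of brain vessels, rose (0.46 ± 0.13, adjusted p = 0.0194). Of 18 tested genes of hypoxia and glycolysis 2 fell, 1 rose and 15 did not pass, at a median of -0.04. Of all genes tested 2.48% rose. Of 16 choroid plexus genes 3 fell, with 1 without replicate 2, none without the 7 libraries and none on the 2 groups alone. Ttr, transthyretin, was at 515, 254 and 335 FPKM, against 518, 377 and 403 FPKM (adjusted p = 0.638). The part of the membranes left on each brain in these values was not tested.

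Of 18 striatal markers 3 rose and none fell, where 2.48% of all genes rose, with a median of 0.31. In 13 all soman libraries lay above all of saline, against 16.3% of all genes. Penk, the enkephalin precursor, was at 123, 113 and 102 FPKM in the soman libraries, against 83.3, 84.7 and 86.1 FPKM in saline (0.41 ± 0.13, adjusted p = 0.0458, limma). Rgs9, a regulator of dopamine receptor signalling, was at 20.9, 32.0 and 19 FPKM, against 14.6, 13.8 and 14.6 FPKM (0.67 ± 0.21, adjusted p = 0.0393). Drd1, the D1 dopamine receptor, was at 6.24, 6.84 and 5.37 FPKM, against 4.85, 4.47 and 4.57 FPKM and did not pass (adjusted p = 0.185). The list summed to 547 to 636 FPKM in the soman libraries, with replicate 2 highest, against 464 to 466 FPKM in saline. None of the 18 rose without replicate 2, without the 7 libraries or with the length trend removed.

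Transcripts of cholinesterases and of acetylcholine synthesis did not pass the test. Ache, acetylcholinesterase, was at 32.9, 34.9 and 35.6 FPKM in the soman libraries, against 34.9, 31.5 and 30.2 FPKM in saline (0.10 ± 0.13, adjusted p = 0.696, limma). Bche, butyrylcholinesterase, was at 1.6, 0.995 and 0.961 FPKM, against 1.04, 0.807 and 0.926 FPKM (0.17 ± 0.13, adjusted p = 0.412). Chat, which makes acetylcholine, was at 2.52, 2.09 and 1.68 FPKM, against 1.56, 1.87 and 2.16 FPKM (0.11 ± 0.17, adjusted p = 0.727). The values of the groups overlapped in all 3 genes. Of 15 cholinergic genes tested, Chrna7, the alpha7 nicotinic receptor subunit, was the single call, at 4.28, 5.14 and 5.20 FPKM, against 6.15, 6.87 and 6.06 FPKM (-0.33 ± 0.10, adjusted p = 0.0453). Without replicate 2 it did not pass (adjusted p = 0.0881). A share of 1 in 15 was near the 6.12% of all genes that fell. None of 18 other serine hydrolases passed, among them Pnpla6, the neuropathy target esterase, at 16.6, 19.7 and 18.9 FPKM, against 20.3, 19.9 and 19 FPKM (adjusted p = 0.642).

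Glial and immune lists showed few calls, where 2.48% of all genes rose and 6.12% fell. Of 19 microglial markers Ctss, cathepsin S, rose (46.8, 40.4 and 42.3 FPKM, against 34.5, 24.5 and 29.5 FPKM in saline, 0.54 ± 0.15, adjusted p = 0.0259, limma), and it did not pass without replicate 2 (adjusted p = 0.0594). None of 17 astrocyte markers passed, and Gfap was at 86.8, 90.9 and 72.6 FPKM, against 75.4, 77.2 and 73.3 FPKM (adjusted p = 0.710). Of 11 genes of reactive astrocytes 3 fell, Cp, Emp1 and Stat3, each at a log2 difference between -0.38 and -0.26, and none of the 11 rose. None of the 11 fell without replicate 2, without the 7 libraries or on the 2 groups alone. None of 17 genes of MHC class I presentation passed, at a list median of 0.30. B2m, the shared light chain, was at 62.8, 84.2 and 71.1 FPKM, against 29.5, 49.5 and 40.3 FPKM, above all of saline but not past the threshold (0.87 ± 0.29, adjusted p = 0.0570). Ifi27 was the single call among 19 interferon-stimulated genes, whose median was -0.03. No gene passed among 18 of the NRF2 antioxidant response or 17 of cholesterol synthesis.

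With all libraries kept, no gene passed the test between doses at day 3. Between 1/5 LD50 and 1/10 LD50 0 genes were called (0% higher and 0% lower, limma, with 356 at an unadjusted p under 0.05), and between 1/5 LD50 and 1/2 LD50 0 were called (610 at an unadjusted p under 0.05). Without replicate 2 of the 1/5 LD50 group these counts were 11 and 9. For Fos, the difference of 1/5 LD50 from 1/10 LD50 was -0.32 on the log2 scale (95% interval -0.79 to 0.16), and from 1/2 LD50 -0.66 (-1.14 to -0.18, adjusted p = 1.00). For Arc they were -0.15 (-0.61 to 0.30) and -0.51 (-0.97 to -0.06), for Hspa5 -0.24 (-0.49 to 0.02) and -0.04 (-0.30 to 0.21), and for Rbm3 -0.12 (-0.41 to 0.18) and 0.05 (-0.24 to 0.34). The intervals leave room for differences between doses of up to about the bounds given, so that the doses are not shown to act alike.

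Against day 1 at the same dose, day 3 was lower in 2 of 40 immediate early genes and higher in 7 of 19 interferon-stimulated genes. At day 3, 170 genes (1.16%) were higher and 256 (1.74%) lower than at day 1. This count rests on few libraries: it was 36 without day 3 replicate 2, 85 without day 1 replicate 3, 110 without day 3 replicate 1, 166 without day 1 replicate 2 and 820 without day 3 replicate 3. Without the 7 libraries that lie between others, of which day 1 replicate 3 is 1, it was 1, Lgals3bp (adjusted p = 0.0337). With median-ratio scaling 182 were higher and 541 lower, a shift of the split towards lower calls.

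Arc was at 8.79, 9.31 and 20.4 FPKM at day 3, against 27.8, 25.7 and 26.8 FPKM at day 1 (-1.10 ± 0.22, adjusted p = 0.00758, limma). Fos was at 1.49, 1.43 and 5.10 FPKM at day 3, against 5.61, 5.69 and 4.98 FPKM at day 1 (-0.95 ± 0.23, adjusted p = 0.0255), and day 3 replicate 3 lay among the day 1 values. Of 40 immediate early genes these 2 were the calls, and neither passed without day 3 replicate 2 (adjusted p = 0.0881 for Arc and 0.190 for Fos). Xbp1 was at 18.1, 15.1 and 19.2 FPKM at day 3, against 21.4, 28.5 and 24.6 FPKM at day 1 (-0.48 ± 0.11, adjusted p = 0.0179). It was the single call among the 29 endoplasmic reticulum genes, and it was lost without day 3 replicate 2 (adjusted p = 0.147).

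Irf7, the transcription factor of the type I interferon response, was at 2.97, 4.18 and 4.87 FPKM at day 3, against 0.490, 1.07 and 0.620 FPKM at day 1 (1.53 ± 0.30, adjusted p = 0.00503, limma). In saline it was at 1.15, 4.97 and 3.20 FPKM, a range that held all 3 day 3 values. Ly6a, an interferon-induced surface protein of brain vessels, was at 10.2, 17.5 and 19.5 FPKM at day 3, against 5.72, 1.8 and 3.82 FPKM at day 1 (1.85 ± 0.34, adjusted p = 0.00397). Lgals3bp, a galectin-3 binding protein, was at 7.06, 8.40 and 11.4 FPKM at day 3, against 3.06, 3.38 and 3.41 FPKM at day 1 (1.19 ± 0.17, adjusted p = 9.95e-04). Of 19 interferon-stimulated genes 7 were higher at day 3 than at day 1, with a median of 0.53, and none of the 3 genes named here differed from saline at day 3 (adjusted p = 0.439 for Irf7, 0.337 for Ly6a and 0.251 for Lgals3bp).

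Lnpep, an insulin-regulated aminopeptidase, was at 6.52, 6.17 and 10.1 FPKM at day 3, against 14.6, 14.1 and 13.4 FPKM at day 1 (-0.83 ± 0.14, adjusted p = 0.00341). Itpr1 was at 72.9, 53.5 and 114 FPKM, against 127, 141 and 136 FPKM at day 1 (-0.81 ± 0.21, adjusted p = 0.0322). Dbp was higher at day 3, at 43.6 to 49.9 FPKM, against 27.2 to 29.8 FPKM at day 1 (0.69 ± 0.13, adjusted p = 0.00491). The 2 days did not overlap in these 3 genes. Without day 3 replicate 2, Lnpep passed (adjusted p = 0.0420), and Itpr1 (adjusted p = 0.246) and Dbp (adjusted p = 0.0547) did not.

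Against day 7 at the same dose, day 3 was lower in immediate early genes and in endoplasmic reticulum chaperones. At day 3, 33 genes (0.224%) were higher and 119 (0.809%) lower than at day 7. Without day 3 replicate 1 this total was 91, without day 7 replicate 2 it was 100 and without day 7 replicate 3 it was 98. Without the 7 libraries it was 94. Fitted on the 2 groups alone 3 were higher and 22 lower.

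Of 40 immediate early genes 23 were lower at day 3 and none higher, with a median of -0.56. Arc was at 8.79, 9.31 and 20.4 FPKM at day 3, against 43.4, 62.1 and 53.3 FPKM at day 7 (-2.05 ± 0.22, adjusted p = 1.07e-06, limma). Fos was at 1.49, 1.43 and 5.10 FPKM at day 3, against 11.3, 13.6 and 11.3 FPKM at day 7 (-1.96 ± 0.23, adjusted p = 4.31e-06). Npas4 was at 0.681, 0.674 and 1.26 FPKM, against 5.16, 4.88 and 3.46 FPKM at day 7 (-1.56 ± 0.20, adjusted p = 1.63e-05). Every day 3 library lay below every day 7 library in these genes.

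Of the 29 endoplasmic reticulum genes 11 were lower at day 3 and none higher. Hspa5 was at 90.1, 90.5 and 87.1 FPKM at day 3, against 185, 184 and 155 FPKM at day 7 (-0.96 ± 0.13, adjusted p = 1.75e-05, limma). Pdia4 was at 15.5, 14.4 and 13.6 FPKM, against 27.4, 29.0 and 23.8 FPKM at day 7 (-0.84 ± 0.10, adjusted p = 8.49e-06). Of the 7 genes with the stress response element that fell against saline, Hspa5, Creld2, Pdia6 and Calr were also lower than at day 7. Rbm3 and Cirbp were not called against day 7 (0.33 ± 0.14, adjusted p = 0.336 for Rbm3 and 0.31 ± 0.14, adjusted p = 0.354 for Cirbp), nor was Dbp (0.05 ± 0.13, adjusted p = 0.935).

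Some matrix genes were higher at day 3 than at day 7. Of 24 collagens 1 was higher and none lower, at a median of -0.03, and of 14 collagen-modifying and matrix-crosslinking enzymes none was higher and 2 were lower, P4ha1 (-0.67) and Plod2 (-0.54), at a median of -0.09. Col3a1, a fibrillar collagen, was at 4.86, 2.78 and 3.47 FPKM at day 3, against 2.04, 2.19 and 1.65 FPKM at day 7 (0.65 ± 0.13, adjusted p = 0.00669, limma). Eln, elastin, was at 9.02, 6.69 and 7.72 FPKM, against 4.33, 4.56 and 3.43 FPKM at day 7 (0.79 ± 0.17, adjusted p = 0.0164). Dcn was at 13.1, 10.1 and 10.8 FPKM, against 8.40, 8.89 and 5.92 FPKM at day 7 (0.51 ± 0.12, adjusted p = 0.0335). Col3a1, Dcn and Igf2 were the calls among the 23 meningeal markers. Igf2 did not pass without day 3 replicate 2 (adjusted p = 0.0746). Without the 7 libraries that lie between others Col3a1 passed (adjusted p = 0.0368). Eln (adjusted p = 0.0708), Dcn (0.110) and Igf2 (0.109) then did not. Tcte1, a component of the ciliary axoneme, was lower at day 3, at 2.01, 2.18 and 1.45 FPKM, against 9.79, 7.24 and 10.6 FPKM at day 7 (-1.82 ± 0.44, adjusted p = 0.0326, and 0.0686 without day 3 replicate 2).

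The place of the 1/5 LD50 values at day 3 among all 13 groups differed between genes. Fos averaged 5.43 ± 0.388 FPKM at day 1, 2.67 ± 2.10 at day 3, 12.0 ± 1.34 at day 7 and 14.1 ± 1.44 at day 14 with 1/5 LD50, against 11.4 ± 1.14 FPKM in saline (SD, n = 3 each). Its day 3 mean was the lowest of the 13 groups, next to 3.26 ± 1.16 FPKM with 1/10 LD50 at day 3, from which it did not differ beyond the spread. Hspa5 averaged 121 ± 24.4, 89.2 ± 1.89, 175 ± 17.1 and 170 ± 12.8 FPKM at days 1, 3, 7 and 14, against 175 ± 6.69 FPKM in saline. Its lowest mean was 75.9 ± 6.51 FPKM with 1/10 LD50 at day 1. Rbm3 averaged 33.2 ± 5.91, 42.1 ± 1.06, 33.4 ± 4.48 and 30.8 ± 2.92 FPKM at days 1, 3, 7 and 14, against 21.3 ± 3.13 FPKM in saline, and was the highest with 1/10 LD50 at day 3 (45.7 ± 3.39 FPKM). Dbp averaged 28.7 ± 1.34, 46.8 ± 3.11, 45.9 ± 10.3 and 39.5 ± 2.47 FPKM at days 1, 3, 7 and 14, against 28.2 ± 2.14 FPKM in saline, and was the highest with 1/2 LD50 at day 3 (48.5 ± 2.56 FPKM).

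**Figure D5:**
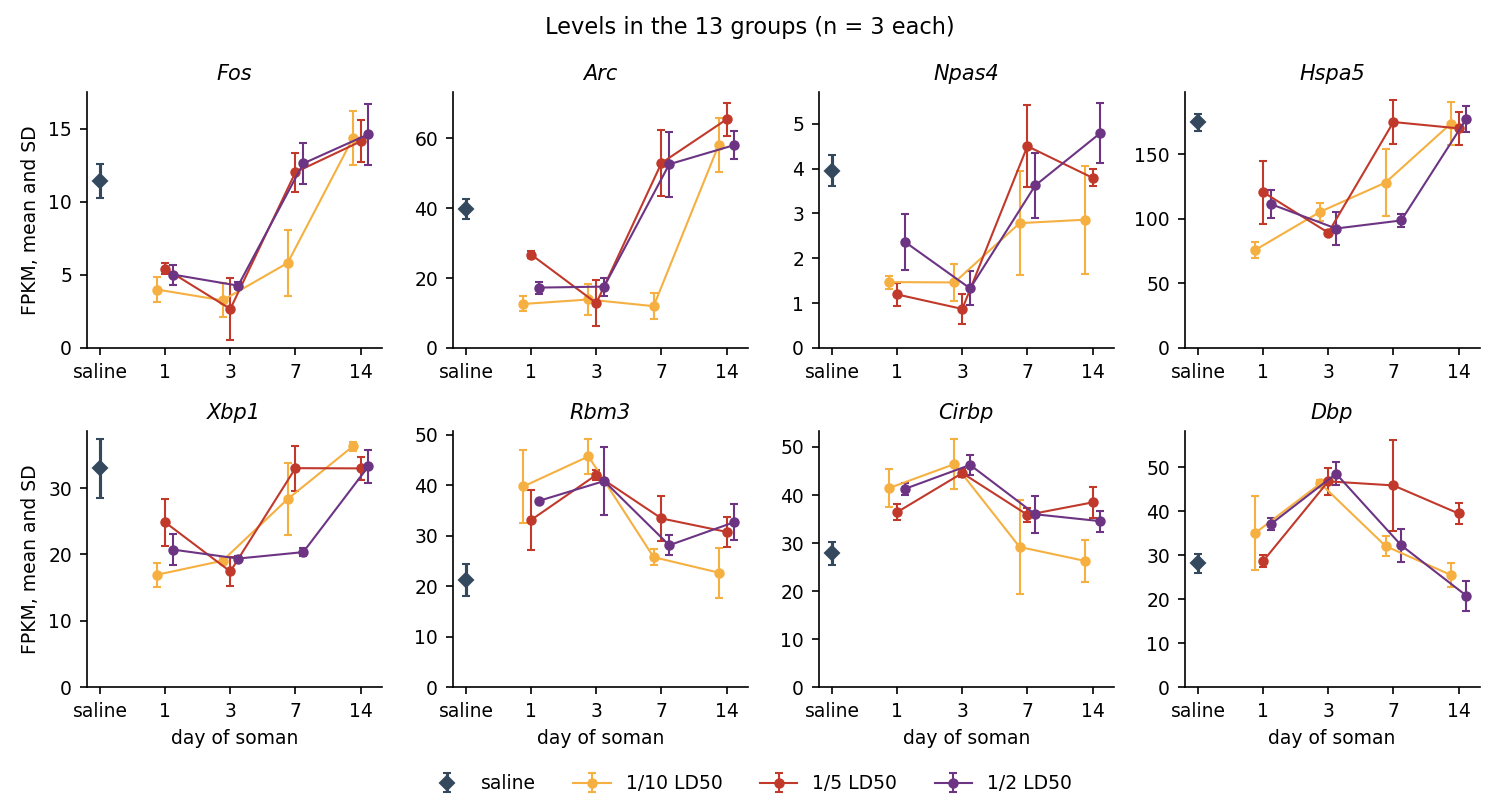
Mean FPKM and SD (n = 3) of 8 genes in the saline group and at days 1, 3, 7 and 14 of soman at 1/10, 1/5 and 1/2 of the LD50. Fos, Arc, Npas4, Hspa5 and Xbp1 are low and Rbm3, Cirbp and Dbp high at day 3 in all 3 doses.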

How the data were processed

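Poly(A) RNA of mouse brains was sequenced, with 3 libraries in each of 13 groups, per the labels' protocols. The authors deposited 1 table of FPKM for 47561 genes and 39 libraries. The submitters' processing notes name HISAT2, without a version, and the build GRCh38, a human build listed here for mouse samples. The counting tool is not given in the sources used here. FPKM did not come out as whole multiples of a read, so depth is unknown, no count model was used, and precision is given by the spread between libraries alone.

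Genes with at least 1 FPKM in at least 3 libraries (14701) were tested as log2(FPKM + 1) in 1 limma 3.58.1 model of all 13 groups (R 4.3.3, eBayes with trend), so that groups share 1 estimate of spread, with Benjamini-Hochberg adjustment over all genes tested and a threshold of 0.05. Fold changes on this scale understate those of low genes. P-values measure the spread between these libraries. Alternatives were another pseudocount, other filters, median-ratio scaling, a replicate block, removal of the trend on transcript length, the 2 groups alone, and leaving out libraries; leaving out the libraries low in cerebellar markers was added after seeing the data. Single sums were compared by exact permutation.

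The genes named are the 12 largest rises and falls past the threshold with a mean of at least 2 FPKM in either group, no overlap between groups and no predicted or pseudogene symbol, the 4 largest each way in each direct comparison by the same rule, the first 2 members and up to 4 of smallest p in each of 49 gene lists, and Ache, Bche and Chat. The pseudogenes of Rps2, the granule cell genes, Alg12 and the other genes with the stress response element were named after their values were seen. Gene groups, lists and tests were chosen with earlier results of these data known. Calculations were checked on simulated data. Promoters are from RefSeq (GRCm38.p6). Some genes that the rule names are not reported here.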

Additional observations from a re-analysis of the deposited data

Results flagged for a closer look

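Several genes differed between the day 3 and day 1 brains of the same dose by a test of that difference (limma, adjusted p under 0.05), on the log2 scale and with 3 libraries a day. Higher at day 3 were Ly6a (1.85), Irf7 (1.53), Ifi27l2a (1.39), Lgals3bp (1.19), Ifi27 (1.09), Smdt1 (0.99), Dbp (0.69) and Jak3 (0.61). Lower at day 3 were Arc (-1.10), Fos (-0.95), Grid2ip (-0.83), Lnpep (-0.83), Itpr1 (-0.81) and Eomes (-0.79). Without day 3 replicate 2, which held few cerebellar transcripts, Ly6a, Irf7, Ifi27l2a, Lgals3bp, Ifi27 and Lnpep passed. The other 8 did not, among them the Purkinje cell genes Grid2ip (adjusted p = 0.269) and Itpr1 (adjusted p = 0.246). Only Lgals3bp of all these genes passed without the 7 libraries that lie between others (adjusted p = 0.0337).

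Other genes differed between day 3 and day 7 of the same dose by the same test. Lower at day 3 were Arc (-2.05), Fos (-1.96), Tcte1 (-1.82), Npas4 (-1.56), Nr4a1 (-1.49), Egr1 (-1.43), Eomes (-1.07) and Hspa5 (-0.96). Higher at day 3 were Eln (0.79), Lgals3bp (0.76), Mcm5 (0.71) and Col3a1 (0.65). Without day 3 replicate 2, Tcte1 (adjusted p = 0.0686) and Mcm5 (adjusted p = 0.0560) did not pass. Eln (adjusted p = 0.0708) and Mcm5 (adjusted p = 0.108) did not pass without the 7 libraries that lie between others.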

How the results depend on the processing

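Against saline, 1265 genes were called, and the count moved by over 1.5 times with the length trend removed (584), without the 7 libraries between others (203), without the libraries low in cerebellar markers (523, added after seeing the data) and on the 2 groups alone (350). With single libraries left out it ran between 453 (soman replicate 2) and 1626 (soman replicate 3). Against 1/10 LD50, where 0 were called, counts were 4 with no filter, 2 without the libraries low in cerebellar markers and 0 to 11 with single libraries left out. Against 1/2 LD50, with 0 called, they were 5, 8 and 0 to 9, and 3 on the 2 groups alone. Against day 1, 426 became 723 with median-ratio scaling, 81 with the length trend removed, 1 without the 7 libraries, 76 without the libraries low in cerebellar markers, 9 on the 2 groups alone and 36 to 820 with single libraries left out. Against day 7, 152 became 94 without the 7 libraries, 25 on the 2 groups alone and 91 to 128 with single libraries left out. The cause was not tested. Other settings moved no count by over 1.5 times, and no named gene reversed its direction. Same-numbered soman and saline libraries did not deviate together (correlations 0.037, 0.070 and -0.156). Such correlations cannot decide whether the numbers pair samples. The libraries between others were replicate 3 in saline, in the 1/10, 1/5 and 1/2 LD50 groups at day 1, and with 1/10 and 1/5 LD50 at day 14. With 1/10 LD50 at day 7 it was replicate 2. With a replicate block 1196 genes were called (338 higher, 858 lower). Depth is unknown, and 3 libraries a group limit the precision.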

Other observations

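Genes of brain vessels were higher in part. Of 18 endothelial markers 3 rose and 1 fell in the soman group against saline, with a median log2 difference of 0.14. Of all genes tested 2.48% rose and 6.12% fell. Without the 7 libraries 1 rose and 1 fell. Slco1a4, an organic anion transporter of the blood-brain barrier, was at 22.6, 18.8 and 17.8 FPKM in the soman libraries, against 14.2, 11.6 and 13.2 FPKM in saline (0.56, adjusted p = 0.00292, limma). All 3 soman libraries lay above saline. Tjp1, a tight junction protein with a long transcript, was the fall (-0.34, adjusted p = 7.71e-04).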
